A study of Homo sapiens with 26 samples.

Results

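Late primed regions are stretches of chromatin that carried H3K4me1 in untreated HCT116 cells (WT) and entered the WT H3K27ac peak lists only after 10 h of Nutlin-3a. HCT116 is a human colorectal carcinoma cell line with wild-type p53, and Nutlin-3a releases p53 from its inhibitor HDM2. The regions were chosen from the merged union of the 10 H3K27ac lists of the series. A region was kept when a peak overlapped it by at least 1 bp in both WT 10 h lists and in none of the WT 0 h and 1 h lists. It also had to overlap a peak in both WT 0 h H3K4me1 lists and lie over 1000 bp from any GRCh37 coding start site. This rule kept 1553 of 87565 merged regions. The H3K27ac calls in WT cells, the H3K4me1 calls at 0 h and the distance therefore describe how the regions were found and are not results.

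The series holds 26 libraries, of which 16 have a peak list and 10 are inputs. WT HCT116 cells were treated with the vehicle DMSO, called 0 h, or with Nutlin-3a for 1 h or 10 h, and each time point has 2 H3K27ac and 2 H3K4me1 lists. An HCT116 derivative named for RAD21, a cohesin subunit, has 2 H3K27ac lists at 0 h and 2 at 1 h, and no 10 h or H3K4me1 list analysed here. The study's methods describe this line as carrying a degron tag on every RAD21 allele and as losing RAD21 upon addition of 5-Ph-IAA. The study describes its H3K27ac libraries of this line, at 0 h and 1 h, as RAD21 knockdown samples made with that compound. The labels do not name the compound, and the series has no H3K27ac lists of this line described as free of it. The line and the loss of RAD21 therefore cannot be told apart. Both the 0 h and 1 h lists are treated here as a separate line and not as a measured depletion. Replicates are numbered in the labels, and all p-values measure the spread between these pairs of lists.

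The H3K27ac lists hold between 31637 and 49127 peaks and the H3K4me1 lists between 84492 and 92943. The WT 10 h H3K27ac lists were the longest, with 49127 and 46638 peaks. Those of WT 0 h had 33972 and 32736, and those of WT 1 h 31637 and 40851. Peak names in both WT 0 h H3K27ac lists and in WT 1 h replicate 1 lack the word input, whereas all the other lists carry it. The untreated state and this form of the name cannot be told apart in the WT H3K27ac lists. Lists with this form of the name were also the shortest, and how far list length decides the absence of a region was not tested. Among distal regions with H3K4me1 at 0 h and both 10 h calls, 3067 were absent from those 3 lists, and 1514 of them were called in WT 1 h replicate 2, the only early WT list named with input. Of 8 markers of epithelium, some general and some intestinal, 5 had an H3K27ac peak at the start site in all 10 lists. These were the intestinal CDX2 and the general EPCAM, CDH1, KRT8 and KRT18. The intestinal CDX1, KRT20 and VIL1 had one in none.

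Enhancers are distal elements that bind transcription factors and raise transcription of genes on the same chromosome. H3K4me1 marks enhancers in both inactive and active states, and H3K27ac is laid down by the acetyltransferases p300 and CBP on those in use. An enhancer with the first mark and without the second is called primed. p53 is a transcription factor that binds DNA as a tetramer at a site built of a pair of half-sites, and it is stabilised in cells when HDM2 no longer marks it for degradation.

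The bases around the H3K27ac summit are shown for a few regions that the results below turn on, which are not a sample of all. The windows below are from GRCh37, plus strand, 5′ to 3′, and span 300 bp around the summit in the WT 10 h lists. PPP1R2C and PYGB name the nearest coding genes of 2 of the strongest regions, and C2orf74 that of a region also called in every RAD21 line list. The windows near AGAP1 and TMEM132E were chosen after their values were seen, because H3K4me1 ranked higher there at 10 h. Capitals mark matches to the p53 half-site. The coordinates are chrX:42836277-42836576, chr20:25276542-25276841, chr2:61407685-61407984, chr2:236677921-236678220 and chr17:32947188-32947487, in the order of the lines.
PPP1R2C: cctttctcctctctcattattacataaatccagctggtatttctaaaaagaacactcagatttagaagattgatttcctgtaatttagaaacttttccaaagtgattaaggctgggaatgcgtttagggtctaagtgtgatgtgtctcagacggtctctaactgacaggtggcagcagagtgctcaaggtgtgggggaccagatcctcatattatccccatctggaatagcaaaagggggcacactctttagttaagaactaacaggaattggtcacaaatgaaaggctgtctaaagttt
PYGB: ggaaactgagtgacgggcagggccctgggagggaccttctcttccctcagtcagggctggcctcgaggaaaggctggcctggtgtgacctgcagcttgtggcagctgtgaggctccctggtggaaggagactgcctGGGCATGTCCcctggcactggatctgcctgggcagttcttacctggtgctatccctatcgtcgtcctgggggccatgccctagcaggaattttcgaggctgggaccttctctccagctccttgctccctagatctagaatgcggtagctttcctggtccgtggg
C2orf74: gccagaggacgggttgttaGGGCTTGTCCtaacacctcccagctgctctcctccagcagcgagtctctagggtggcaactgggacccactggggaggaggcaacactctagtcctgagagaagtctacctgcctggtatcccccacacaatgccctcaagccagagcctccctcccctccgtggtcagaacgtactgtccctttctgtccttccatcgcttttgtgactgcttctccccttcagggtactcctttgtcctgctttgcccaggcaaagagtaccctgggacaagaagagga
AGAP1: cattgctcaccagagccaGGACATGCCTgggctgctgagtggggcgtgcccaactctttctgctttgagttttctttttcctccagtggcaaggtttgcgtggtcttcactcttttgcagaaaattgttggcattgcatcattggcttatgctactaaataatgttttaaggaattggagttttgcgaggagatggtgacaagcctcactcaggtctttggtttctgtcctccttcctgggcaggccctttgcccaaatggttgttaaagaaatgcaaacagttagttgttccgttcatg
TMEM132E: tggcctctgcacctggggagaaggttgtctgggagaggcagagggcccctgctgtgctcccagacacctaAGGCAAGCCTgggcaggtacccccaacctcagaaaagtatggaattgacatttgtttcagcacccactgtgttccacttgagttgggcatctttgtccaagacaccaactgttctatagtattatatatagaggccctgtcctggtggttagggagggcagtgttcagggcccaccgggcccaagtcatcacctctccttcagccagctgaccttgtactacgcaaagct
The window near PPP1R2C held no match to the p53 half-site or to the AP-1 motif, and the other 4 held 1 p53 half-site each. A further window among the strongest, near ALOX5 and not printed, held no match to any motif searched. Over all late primed windows the half-site was in 16.7%.

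Most late H3K27ac calls were at sites without an H3K4me1 call at 0 h. Of the 33562 regions called in both WT 10 h lists, 6941 were in no WT 0 h or 1 h list, and 6774 of these were distal. H3K4me1 was called at 0 h in both lists at 1553 of the 6774 (22.9%), in 1 of 2 lists at 459 (6.78%) and in neither at 4762 (70.3%). Over all 87565 merged regions, start sites included, 48055 had both 0 h calls. Of the 6774, 3944 had no H3K4me1 call at any time point and serve below as late regions without H3K4me1. The other set for comparison is the 9609 distal regions with H3K27ac in all 6 WT lists and H3K4me1 in both 0 h lists, called constitutive here.

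H3K27ac at the late primed regions was weak. The strength of a region in a list is the percentile of the −log10 p of its strongest peak, among the merged H3K27ac regions called in that list. The mean over both WT 10 h lists had a median of 29.1 (interquartile range 20.5 to 39.9, highest 69.4), against 66.1 in the constitutive set. Only 134 regions (8.63%) were above the 50th percentile. The median fold enrichment was 3.73 in replicate 1 and 3.78 in replicate 2, against 9.09 and 9.39 in the constitutive set. The median −log10 q was 3.96 and 4.05, against 27.4 and 29.0. In both lists, 321 regions (20.7%) reached a −log10 q of 5. The sets were defined by calls in the WT lists, and a call depends on peak strength, so these differences are a description.

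Late primed regions were narrower than constitutive ones, and most lay inside genes, as did most merged regions. Their median width was 924 bp (interquartile range 626 to 1365), that of constitutive regions 2047 bp and that of late regions without H3K4me1 822 bp. A merged region unites the peaks of all lists that call it, so width also depends on the calls that define the sets. It was 1851 bp over all regions called in both WT 10 h lists and 636 bp over all merged regions. Introns of coding genes held 1193 of them (76.8%), exons 101 (6.50%), noncoding genes alone 83 (5.34%) and intergenic DNA 176 (11.3%). Introns held 47.2% of constitutive regions and 85.1% of late regions without H3K4me1. They held 60.3% of all regions called in both WT 10 h lists and 64.7% of all merged regions, and exons held 15.5% and 11.8%. Of the 1294 late primed regions inside a coding gene, 441 (34.1%) were in the first 25% of the gene and 236 (18.2%) in the last 25%. The GC content had a median of 48.1%, close to the 47.4% of constitutive regions, but values under 40% were held by 9.01% of late primed and 16.2% of constitutive regions.

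Many late primed regions were neighbours of constant acetylation. The median distance to the nearest coding start site was 11832 bp, against 29732 bp in the constitutive set and 17110 bp in late regions without H3K4me1. It was 23703 bp over all distal regions with H3K4me1 at 0 h and both 10 h calls, and 14584 bp over all merged regions, start sites included. Within 5000 bp of a region called in all 6 WT lists were 51.1% of late primed regions, 21.6% of constitutive regions and 16.9% of late regions without H3K4me1. The share was 31.1% over all distal regions with H3K4me1 at 0 h and both 10 h calls, and 25.5% over all merged regions. Another late primed region lay within 10000 bp of 445 (28.7%). The regions nearest to the distance limit, given as a description, were those of RASIP1 at 1008 bp, ZNF24 at 1022 bp and XPO1 at 1024 bp just inside it. POR at 943 bp, CKAP2 at 964 bp and RETREG3 at 992 bp were just outside.

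**Figure D1:**
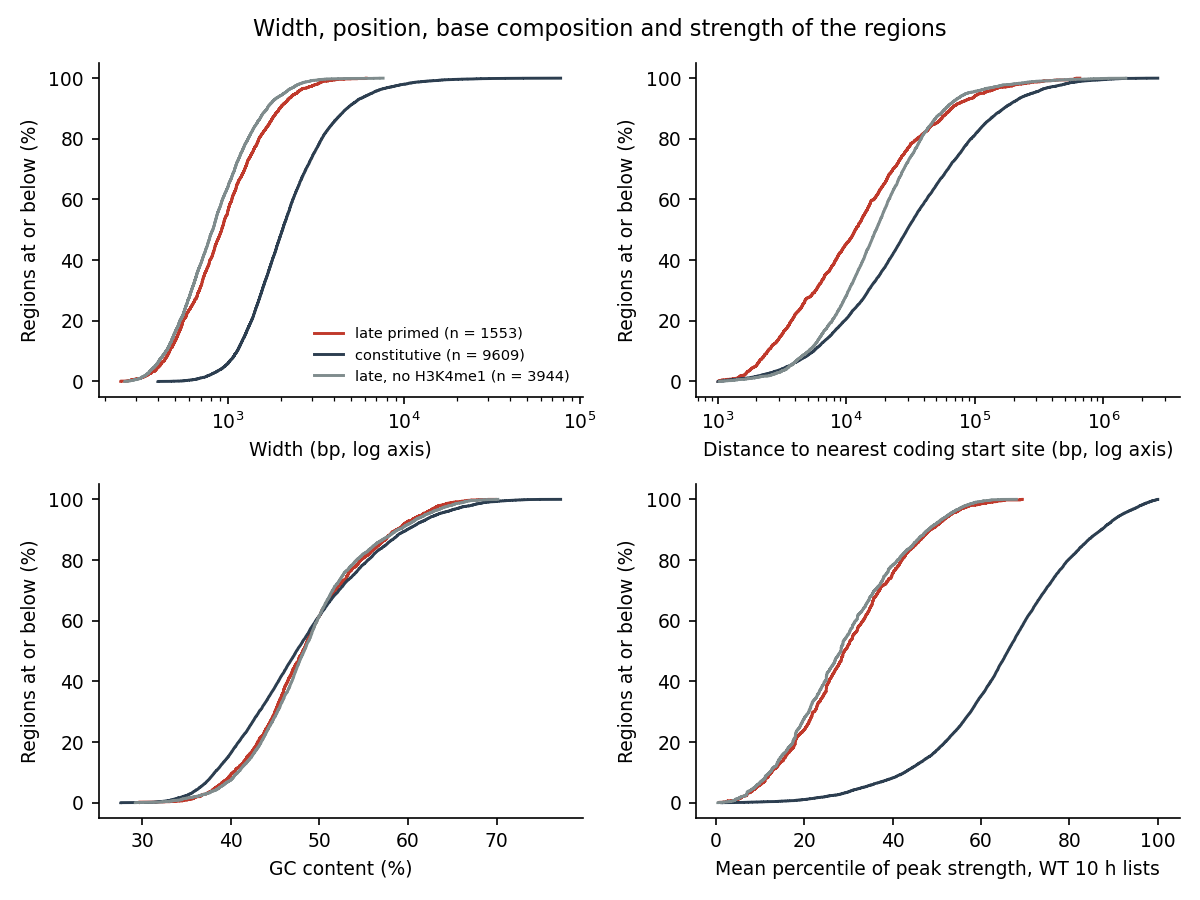
Cumulative share of regions (%) by width (bp, log axis), distance to the nearest coding start site (bp, log axis), GC content (%) and mean percentile of H3K27ac strength in the WT 10 h lists. Late primed regions (red, n = 1553) and late regions without H3K4me1 (grey, n = 3944) are narrower and weaker than constitutive regions (dark, n = 9609), with median widths of 924, 822 and 2047 bp. Width and strength depend on the calls that define the sets, so this is a description.

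Chromosomes 17 and 19 held more late primed regions per acetylated site than the others. Chromosome 1 had 149 of the regions, 17 had 146 and 19 had 106. Per 100 distal regions with H3K4me1 at 0 h and both 10 h calls, these were 9.85, 14.1 and 13.6 late primed regions. Chromosomes 22 (12.6) and 16 (12.5) followed, and chromosomes 18 (7.14) and 21 (6.92) were the lowest of the autosomes. These shares are counts of regions and were not tested.

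The region with the highest mean percentile (69.4) lay at chrX:42835479-42837151, intergenic, 198065 bp from PPP1R2C, which encodes an inhibitor of protein phosphatase 1. Its fold was 12.2 and 13.1 in the WT 10 h lists, and no RAD21 line list called it. It was followed by an intronic region of ALOX5, the 5-lipoxygenase that begins leukotriene synthesis, at chr10:45932444-45935535, with a −log10 q of 32.5 and 43.0. The next, at chr20:25275390-25278816, overlapped exons of ABHD12 or PYGB, the latter a glycogen phosphorylase, and had values of 37.4 and 36.3. Both 10 h lists placed these 3 regions between the 67th and 71st percentile, so their replicates differed little.

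The other 7 of the 10 strongest regions had mean percentiles between 63.8 and 68.8. One lay 208403 bp from PAPPA, a protease that frees insulin-like growth factors from their binding proteins, and another in an intron of SLC16A10, a carrier of aromatic amino acids. Others were in introns of MYO1E (a class I myosin; nearest start site LDHAL6B), RFC3 (a subunit of the clamp loader of DNA replication) and AGAP1 (a GTPase-activating protein for Arf). The last 2 were intergenic, near RPAP3, which helps to assemble RNA polymerase II, and PASD1, a cancer-testis antigen. SLC16A10 was the only 1 of the 10 whose H3K4me1 region was already above the 50th percentile of H3K4me1 regions in both 0 h lists.

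Late primed regions were mostly spread singly over many genes. Of 19785 coding genes, 1175 (5.94%) were the nearest to at least 1 region, 960 of them to exactly 1, 215 to 2 or more and 41 to 4 or more. Constitutive regions were also nearest to 616 (52.4%) of the 1175. The most regions, 12 each, had YWHAE, which encodes the adaptor protein 14-3-3 epsilon, and ANKRD11, a chromatin regulator. YWHAE had no constitutive region and ANKRD11 had 3.

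The 12 regions of YWHAE lay between 1263256 and 1322439 on chromosome 17, and 11 of them shared a single H3K4me1 region of 39155 bp. Their mean percentiles ranged from 7.27 to 55.6, and 10 of 12 were called in at least 1 RAD21 line list, though none in both 0 h lists. Those of ANKRD11 were all inside the gene, on chromosome 16 between 89412336 and 89538660, with percentiles from 7.23 to 36.2, and 6 of 12 were in no RAD21 line list. H3K4me1 under these regions did not pass the test at 10 h, with scores higher by 0.10 for the wide region at YWHAE (adjusted p = 0.949) and between −0.31 and 0.63 at ANKRD11.

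Regions were also numerous at AGO2 (8), the Argonaute protein that cleaves miRNA targets, CTBP2 (8), a transcriptional corepressor, and SEPTIN9 (8), a filament-forming GTPase. HMGA2, an architectural chromatin protein, had 7 regions beside 13 constitutive ones, AKAP12, a scaffold for protein kinase A, had 7, and MPRIP, which targets myosin phosphatase to actin, had 7. FAT1, an atypical cadherin, had 6, and LMNB1, which encodes lamin B1, had 5. All regions of these 8 genes were inside the gene body. Within HMGA2 the 7 regions shared 1 H3K4me1 region of 137318 bp, whose score moved by 0.01 at 10 h (adjusted p = 0.993). At MPRIP, 6 of 7 regions were in no RAD21 line list, whereas at AGO2 and FAT1 each region was in at least 1.

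The nearest genes were compared with 10 gene lists chosen with earlier results of these data in view. Of 43 p53 targets, 4 (9.30%) were nearest to a region, against 5.94% of all coding genes. These were BBC3, which encodes the apoptotic protein PUMA, AEN, an apoptosis-enhancing nuclease, KITLG, the ligand of KIT, and LIF, a cytokine. The region of KITLG at chr12:88927544-88929341 was at percentiles 48.2 and 31.9 in the 10 h lists and in 3 RAD21 line lists. That of BBC3, in an intron of SAE1 44986 bp from the start site, was at 43.1 and 31.2, and that of LIF at 10.3 and 36.3. H3K4me1 passed the test at none of these.

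The Wnt target and intestinal stem cell list had 7 of 20 genes (35.0%), the highest share, with 13 regions. TCF7L2, the main nuclear effector of Wnt signalling in the intestine, had 5 of them, the strongest at percentiles 48.4 and 48.7. The strongest of NOTUM, a secreted Wnt inhibitor, was at 50.1 and 43.9, and that of EPHB2, a receptor that positions crypt cells, at 24.1 and 59.3. MYC, ZNRF3, TCF7 and CD44 were the other members. The cell cycle list had 6 of 26 genes (23.1%), among them CCNA2, the cyclin of S phase, CDK1, the kinase of mitosis, and AURKB, a kinase of the chromosomal passenger complex.

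Actin cytoskeleton genes numbered 6 of 24, with ACTN1 (an actin crosslinker), MYH9 (non-muscle myosin) and VCL (vinculin) the strongest. Receptor tyrosine kinases and their ligands had 5 of 23 (21.7%), led by MET, the receptor of hepatocyte growth factor, FGFR2, a fibroblast growth factor receptor, and EPHA2, an ephrin receptor. The integrins and laminins had 4 of 21 (19.0%), led by ITGA2 at percentiles 57.1 and 52.8, ITGA3 at 54.4 and 55.2 and LAMB3 at 55.2 and 38.8. AP-1 and MAPK feedback had 4 of 24 (16.7%; JUND, ETV4, SPRY4 and SPRED2), the TGF-beta pathway 3 of 25 (SMURF2, TGFBR2 and SMAD3), intestinal and epithelial transcription factors 1 of 21 (4.76%; ELF3) and interferon and NF-kB genes 1 of 24 (4.17%; RELB). Constitutive regions were nearest to a larger share of every list, from 30.8% of the cell cycle list to 83.3% of the AP-1 list, and to 27.2% of all coding genes.

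Whether H3K4me1 at these sites changed with treatment was asked with the 1 h and 10 h lists, which did not choose the regions, set against the 0 h lists, which did. Both 10 h lists called H3K4me1 at 1403 of 1553 regions (90.3%), against 96.1% of all H3K27ac regions with both 0 h calls, and neither list did at 35. At 1 h both lists called it at 1357 (87.4%), against 96.7%. Constitutive regions had both calls at 99.8% at either time. The H3K4me1 peak of a region was first ranked among the merged H3K27ac regions called in the same H3K4me1 list. On this scale late primed regions had a median percentile of 28.4 and 24.2 in the 0 h lists. It was 26.9 and 27.7 in the 1 h lists and 37.5 and 38.9 in the 10 h lists. These medians cover all 1553 regions at 0 h but 1425 and 1496 at 10 h, and the 0 h lists were part of the rule, so they are a description. Those of the constitutive set were between 73.5 and 74.9 in all 6 lists.

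The same comparison was then made on merged H3K4me1 regions with a peak in all 6 lists. Each was scored by the rank of its strongest peak in a list, put on a normal scale, and tested with limma over all 60476 regions. Every region in this set has the 0 h calls that the rule asked of late primed ones. Late primed regions fell in 1204 of these H3K4me1 regions, which held 1463 of the 1553. Among all H3K4me1 regions tested, the 1204 had a median percentile of 60.4 and 63.3 in the 0 h lists. It was 59.6 and 60.8 in the 1 h lists and 71.1 and 70.9 in the 10 h lists, against 50.0 over all tested. H3K4me1 percentiles of single regions are given on this second scale. The H3K4me1 regions were wide (median 6469 bp, against 2339 bp over all tested), so their strongest peak may lie outside the acetylated part.

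At 10 h, 71 of the 1204 (5.90%) ranked higher than at 0 h and 1 ranked lower at an adjusted p under 0.05, against 0.615% and 0.0231% of all regions tested. The 71 are 19.1% of the 372 regions that ranked higher anywhere. Among H3K4me1 regions at any distal region with H3K4me1 at 0 h and both WT 10 h calls, a set that includes the late primed ones, 209 of 11952 (1.75%) ranked higher, which is 56.2% of the 372. Among those at constitutive sites, 44 of 8645 (0.51%) ranked higher, and among those with no H3K27ac region 90 of 25443 (0.35%). The median change was 0.09 at late primed regions, 0.00 at constitutive ones and −0.02 over all tested, in units of the normal score. A change above 0 was seen in 63.4% of the 1204 and in 47.3% of all. The count of 71 became 0 without a variance trend and 1 when regions were ranked by fold. Leaving out 10 h replicate 1 or 2 gave 0 and 1, and leaving out 0 h replicate 1 or 2 gave 30 and 27, whereas the median stayed above 0 in each of these fits.

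**Figure D2:**
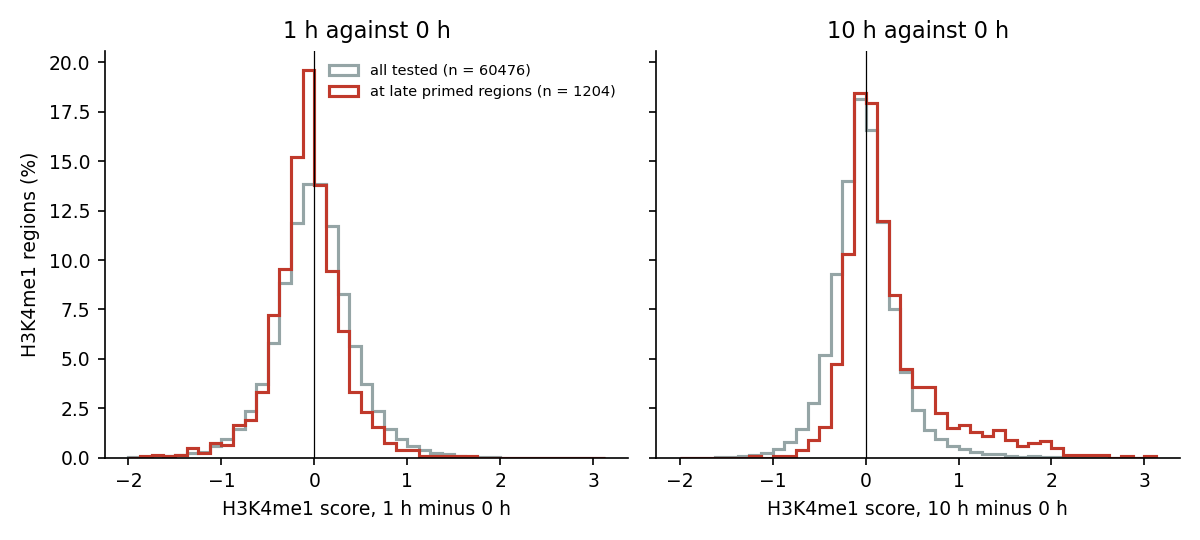
Distribution of the change in H3K4me1 score (normal score of the rank in a list, mean of 2 lists minus mean of the 0 h lists) at 1 h and at 10 h, as a share of regions (%) in bins of equal width, with values beyond the axis drawn in the end bins. H3K4me1 regions at late primed sites (red, n = 1204) are shifted to the left of all tested regions (grey, n = 60476) at 1 h, and at 10 h they have a longer right tail, with medians of −0.07 and 0.09.

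Among the regions with the smallest p for a higher rank were 4 near ACTL7A, HMX3, NEURL1B and TMEM132E. The H3K4me1 region near TMEM132E (chr17:32946569-32948072) was at percentiles 4.23 and 1.75 at 0 h, 0.50 and 9.36 at 1 h and 83.2 and 91.5 at 10 h. The 10 h lists were far above the other 4, which overlapped, and the change was 3.08 ± 0.40 (SE, adjusted p = 0.00295). Near NEURL1B, which encodes a ubiquitin ligase of Notch signalling, the percentiles were 1.13 and 0.85, then 17.4 and 11.1, then 63.4 and 69.1 (chr5:172085712-172087819). That change was 2.75 ± 0.33 (SE, adjusted p = 0.00206), and the 1 h lists stood between those of 0 h and 10 h.

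ACTL7A, an actin-like protein of the testis, and HMX3, a homeobox factor, had changes of 2.51 ± 0.28 and 2.01 ± 0.24. No RAD21 line list called H3K27ac at any of the 4. The acetylated regions themselves were between the 20.0th and 50.3rd mean percentile.

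In the other direction only the region near NR2F6, an orphan nuclear receptor, passed the test, with a change of −0.89 ± 0.18 (SE, adjusted p = 0.0348). It was at 99.9 and 99.9 at 0 h, 91.4 and 97.4 at 1 h and 98.8 and 98.5 at 10 h. All 6 lists thus placed it above the 91st percentile. DMKN (−0.74), ALKBH4 (−0.71), PLEKHH3 (−0.67) and DGAT1 (−0.63) did not pass (adjusted p from 0.148 to 0.202).

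**Figure D3:**
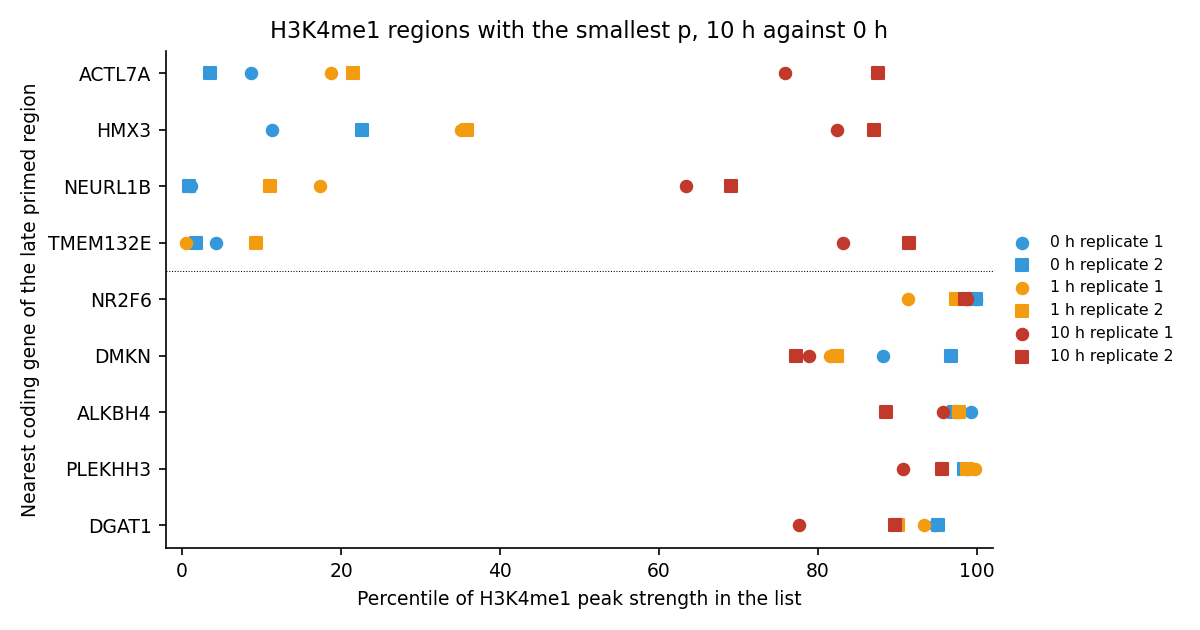
Percentile of H3K4me1 strength, among all H3K4me1 regions tested, in each of the 6 WT lists for 9 H3K4me1 regions at late primed sites among those with the smallest p in each direction, named by the nearest coding gene (circles replicate 1, squares replicate 2). Above the dotted line both 10 h lists (red) are to the right of the 0 h (blue) and 1 h (orange) lists, and below it all lists are above the 77th percentile.

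The 71 H3K4me1 regions held 73 late primed regions, nearest to 71 genes, with 2 regions each at AGAP1 and DCAF5. Among them were 5 of the 10 strongest late primed regions. H3K4me1 at ALOX5 was at 7.24 and 4.67 at 0 h, 5.88 and 0.47 at 1 h and 50.1 and 74.9 at 10 h, a change of 1.90 ± 0.41 (SE, adjusted p = 0.0493). At PYGB it was at 27.3 and 20.5, 33.5 and 20.8, and 84.6 and 83.9, a change of 1.72 ± 0.23 (SE, adjusted p = 0.00312). RFC3 (2.14), AGAP1 (1.94) and the MYO1E intron (1.49) also passed, and in each both 10 h lists exceeded the 4 earlier ones. Among the listed genes, only MCM5, a subunit of the replicative helicase (1.96), and SPRED2, an inhibitor of RAS signalling (1.14), had such a region.

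These 73 were stronger in H3K27ac than the rest, with a median mean percentile of 40.6 against 28.8 for the other 1390 in the fit. When all late primed regions were divided by strength into 3 equal groups, the strongest group held 44 of them (60.3%). Their H3K4me1 regions were narrow, with a median of 2123 bp. In the RAD21 line 51 of 73 (69.9%) were in no list, against 41.5% of the others, and 3 (4.11%) were in both 1 h lists, against 21.3%. Both 0 h lists held 7 (9.59%), against 11.9%. CREBBP, one of the H3K27 acetyltransferases and named here after its value was seen, was among their nearest genes with a change of 1.77.

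At 1 h, 5 of the 1204 H3K4me1 regions ranked higher than at 0 h and 6 lower, against 0.291% and 0.304% of all tested. The median change was −0.07 and 38.9% were above 0, against 49.6% of all. At an unadjusted p under 0.05, 63 of the 1204 were higher and 121 lower, and 9401 of all 60476 tested passed in either direction. The changes at 1 h and at 10 h share the 0 h lists, so these values are set side by side and their relation was not tested.

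Sequence around the summits was compared by motif matches in the 300 bp windows, on both strands. The p53 half-site, a degenerate run of 10 bases, was found in 259 late primed windows (16.7%, 95% Wilson interval 14.9 to 18.6), in 9.69% of constitutive windows, in 18.8% of late windows without H3K4me1 and in 10.7% of all regions called in both WT 10 h lists. A full p53 site, with up to 13 bases between a pair of half-sites, was in 6 late primed windows (0.39%), against 0.38% of all. These were near CDKAL1, THNSL2, TMEM131, MAP2K6, AUH and SEC13. The full site always contains the half-site, so the counts overlap.

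The half-site was frequent where H3K4me1 also ranked higher. Of the 73 late primed regions in such H3K4me1 regions, 30 (41.1%, Wilson interval 30.5 to 52.6) had a half-site, against 214 of the other 1390 (15.4%, 13.6 to 17.4). For each of the other 16 motifs the 2 intervals overlapped. Counted from the sequence, 30 of the 240 H3K4me1 regions at late primed regions with a half-site (12.5%) ranked higher at 10 h, and 42 of the 1009 at those without (4.16%). An H3K4me1 region that held late primed regions of both kinds counts in both. The median change was 0.18 and 0.07 at 10 h, and −0.07 in both at 1 h. By H3K27ac strength the half-site was in 12.2% of the weakest of these 3 groups, 18.2% of the middle one and 19.7% of the strongest. This relation was noticed after the values were seen and has no test, and the matches are letters in a window and not binding sites. The MAP2K6 region, in an intron of the kinase that activates p38, had a full site and an H3K4me1 change of 2.03 (adjusted p = 0.00428).

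Other motifs differed between late primed and constitutive windows. TGANTCA, the motif of AP-1, was in 162 windows (10.4%), against 17.5% of constitutive windows and 5.83% of late windows without H3K4me1. The GC box GGGCGG, bound by SP and KLF factors, was in 10.9% against 19.0% and 8.49%. CAGGTG, an E-box bound by ZEB and SNAI repressors, was in 40.2% against 28.6% and 40.5%. GGAATG, the TEAD motif, was in 14.2% against 17.1% and 11.5%, and AGATAA, the GATA motif, in 10.5% against 12.1% and 10.6%. All regions called in both WT 10 h lists had the AP-1 motif in 10.0%, the GC box in 30.2%, CAGGTG in 31.0%, GGAATG in 13.4% and AGATAA in 8.58%. Late primed windows thus held AP-1 motifs at a share between those of the other sets and p53 half-sites at a share near that of late windows without H3K4me1. Windows with the AP-1 motif were at a median percentile of 25.7, and those without at 29.7.

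**Figure D4:**
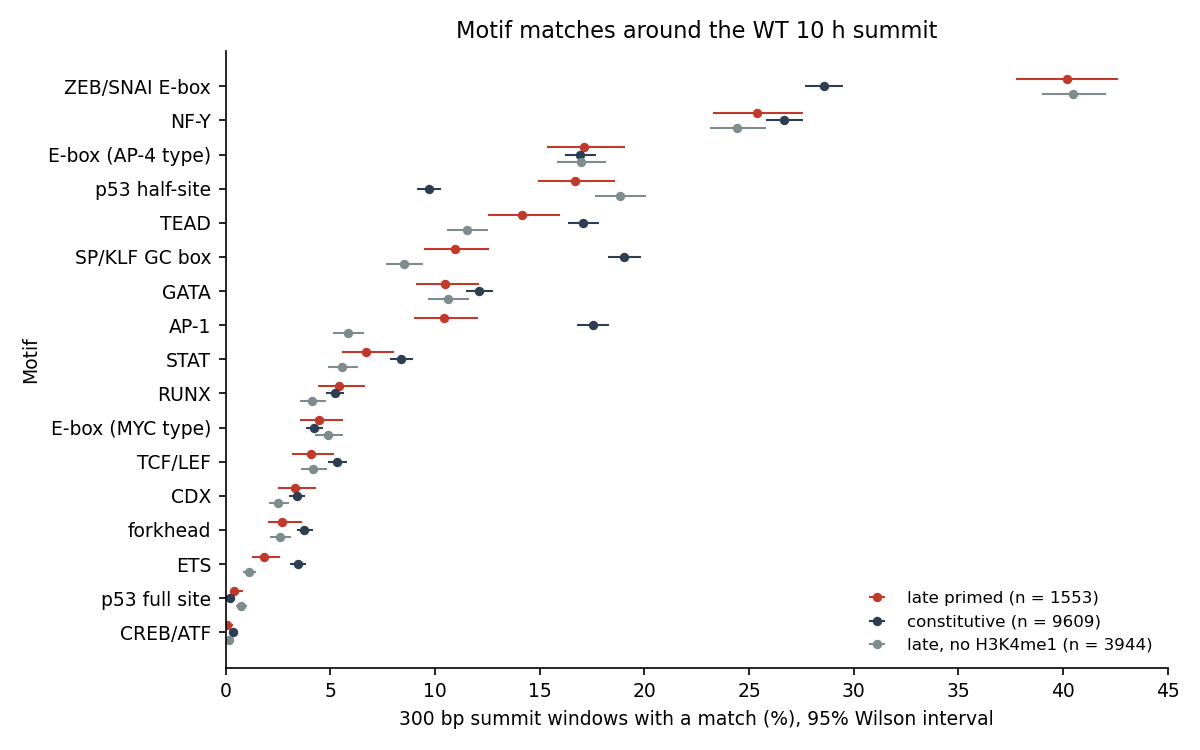
Share of 300 bp summit windows with at least 1 match to each motif (%), with 95% Wilson intervals that cover counting error only, in late primed regions (red, n = 1553), constitutive regions (dark, n = 9609) and late regions without H3K4me1 (grey, n = 3944). Both late sets are above the constitutive set for the p53 half-site (16.7% and 18.8% against 9.69%) and for the ZEB and SNAI E-box, and below it for AP-1 and the GC box.

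The RAD21 line gave a further look at acetylation of the same sites in other lists. At 0 h both lists of this line called 196 of the 1553 regions (12.6%, Wilson interval 11.1 to 14.4), against 30.1% of all merged regions and 84.7% of constitutive ones. At least 1 of them called 564 (36.3%), against 52.9% of all merged regions, and neither called 989 (63.7%). At 1 h both lists called 317 (20.4%), against 33.5% of all and 94.8% of constitutive regions. No list of the line called 666 (42.9%), against 32.7% of all, and all 4 lists called 88 (5.67%), against 25.6% of all. Late regions without H3K4me1 were in both 0 h lists in 9.33% and in both 1 h lists in 4.21%. The merged union also holds sites found only in this line, so its shares are a background and not a matched control.

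Calls in the RAD21 line were more frequent for stronger regions. From the weakest to the strongest of 3 equal groups by WT 10 h percentile, both 0 h lists called 5.60%, 12.2% and 20.1%, both 1 h lists 13.9%, 21.1% and 26.3%, and no list 51.5%, 42.2% and 34.9%. Both 1 h lists and neither 0 h list called 124 regions (7.98%, against 4.60% of all merged regions), and both 0 h lists and neither 1 h list 51 (3.28%, against 2.87%). With 2 lists at each time, presence in 1 pair and absence from the other has no test.

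**Figure D5:**
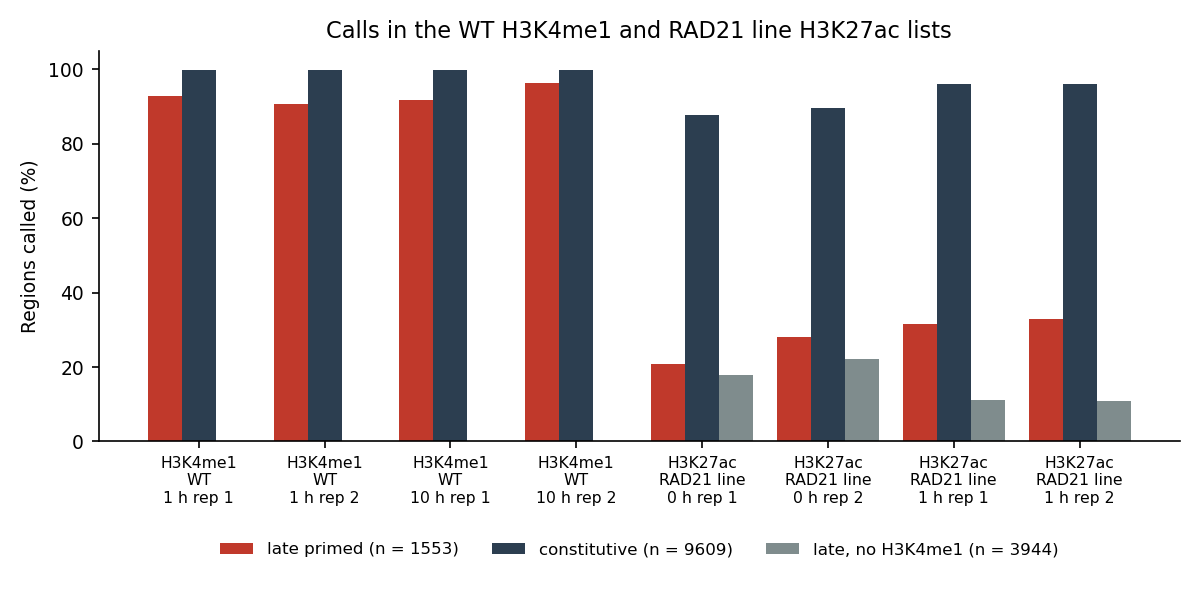
Share of regions (%) with a call in each WT H3K4me1 list at 1 h and 10 h and in each H3K27ac list of the RAD21 line, for late primed regions (red, n = 1553), constitutive regions (dark, n = 9609) and late regions without H3K4me1 (grey, n = 3944, at 0 in the H3K4me1 lists by definition). Late primed regions are at 90.8% to 96.3% in the H3K4me1 lists, at 20.9% and 28.1% in the 0 h lists of the RAD21 line and at 31.6% and 32.8% in its 1 h lists.

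Of the strongest regions in no RAD21 line list, the first 5 were those near PPP1R2C, ALOX5, SLC16A10, RPAP3 and PASD1. The strongest in all 4 lists was that of PYGB, with a −log10 q of 6.45 and 3.74 at 0 h and 5.97 and 9.50 at 1 h. It was followed by regions near C2orf74, MBLAC1 (a metallo-beta-lactamase domain protein), SAE1 (a subunit of the SUMO-activating enzyme) and BDP1 (a subunit of TFIIIB). MBLAC1 had a −log10 q of 10.5 to 13.8 in the 4 lists of the RAD21 line. Such values depend on the depth of each library, which is unknown here, and were not compared with those of the WT lists. H3K4me1 passed the test only at PYGB among these 5, and the region of MBLAC1 was already at 90.9 and 91.5 at 0 h.

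The change in H3K27ac rank from 0 h to 1 h within the RAD21 line could be tested at the 88 regions in all 4 lists. Of these 2 ranked higher and 8 lower, against 18.9% higher and 16.7% lower of the 22451 regions tested. The 2 higher ones lay near FTL, the ferritin light chain (1.41 ± 0.38 SE, adjusted p = 0.0120), and NCBP3, a nuclear cap-binding protein (0.92 ± 0.29 SE, adjusted p = 0.0252). Among the lower ones were regions near FOXK2, a forkhead factor (−1.07 ± 0.22 SE, adjusted p = 0.00287), SLC4A3, an anion exchanger (−1.54 ± 0.33 SE, adjusted p = 0.00324), and ATF5, a stress-response factor (−1.28 ± 0.30 SE, adjusted p = 0.00570). The median change was −0.23, against 0.03 over all tested. On the scale of the log2 of −log10 p, 0 of the 88 were higher and 42 lower, against 3280 and 5895 of the 22451 tested. The median change on that scale was −1.24, against −0.16 over all tested.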

How the data were processed

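The 16 peak lists each hold 1 ChIP-seq library. According to the study's methods and the submitters' processing notes, the authors trimmed reads with Trim Galore (0.6.6), mapped them to GRCh37 with Bowtie2 (2.3.2), removed duplicates and called peaks with MACS2 (2.2.7.1) against an input, with its narrow setting for H3K27ac and its broad one for H3K4me1. The deposited values are the fold (a ratio over local background), the −log10 p-value and the −log10 q-value of each peak. No read counts were used, so depth is unknown here, and p-values grow with depth. Fold and −log10 values were therefore compared between sets of regions only within a list, and between lists only as ranks or, as an alternative, as centred log2 values. Where they are printed for single regions, they describe that list.

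Members and gene lists were chosen with earlier results of these data known. Peaks that overlapped or touched were merged in Python (3.11.15) with pandas (2.3.3) and NumPy (2.4.6), on chromosomes 1 to 22, X and Y. A call was an overlap of at least 1 bp. The coding start sites were those of basic protein-coding transcripts in the GENCODE annotation lifted to GRCh37. Ranks of −log10 p, put on a normal scale, were tested in limma (3.58.1, R 4.3.3) with a variance trend, over all regions called in every list of the fit, with Benjamini-Hochberg adjustment at 0.05. With 2 lists against 2, no exact permutation test can reach this threshold. Scripts were tested on simulated data. Wilson intervals (95%) cover counting error only.

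Named were the 10 strongest members, the 10 genes nearest to most members, 5 H3K4me1 regions with the smallest p in each direction, the 5 strongest members in no and in all RAD21 line lists, the 3 strongest members of each gene list and 3 regions on each side of the distance limit. Of these, 1 H3K4me1 region is not reported here. Same-numbered lists did not deviate together (correlations from −0.034 to 0.0074), so replicate numbers were not used as pairs.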

Additional observations from a re-analysis of the deposited data

Results flagged for a closer look

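The median H3K4me1 score of the 1204 regions at late primed sites lay on opposite sides of the untreated level at the 2 times. It was 0.04 below the 0 h mean at 1 h (−0.043) and 0.25 above it at 10 h (0.251), with both lists of each time on the same side. The 1 h medians (0.24 and 0.27) overlapped those of 0 h (0.26 and 0.34), whereas both 10 h medians (0.56 and 0.55) were above all 4. These are differences between medians of lists, and the median of the changes per region was smaller at 10 h (0.09) and −0.07 at 1 h. The difference between the times was not tested. Groups of 2 lists were too small to look for single lists that stand apart.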

How the results depend on the processing

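The number of late primed regions, 1553, depended on how a call was made. It was 784 when a call had to cover 50% of the region, 174 with a −log10 q of at least 5 for presence and 2480 with absence judged only on lists named with input, and it ranged from 1633 to 3129 with 1 list left out, 3067 of them without WT 1 h replicate 2. The share called in both 0 h RAD21 line lists, 12.6%, was then 7.91%, 21.3% and 18.5%, and 7.86% to 28.1% with 1 list left out. Other start sites, a limit of 5000 bp and a union of the 10 h lists alone moved neither beyond these limits.

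The calls in H3K4me1 at 10 h (71 higher, 1 lower) became 1 and 0 ranked by fold, 0 and 0 without a variance trend, 34 and 0 among the regions with a −log10 q of at least 5, and 0 to 30 and 0 to 1 with 1 list left out. Those at 1 h (5 higher, 6 lower) became 0 and 0 by fold, 0 and 0 without the trend, 0 and 1 in the stronger regions, and 0 and 0 to 4 with 1 list left out. In the RAD21 line (2 higher, 8 lower) they became 1 and 5 by fold, 0 and 42 on the log2 scale, 6 and 17 without the trend, 0 and 4 in the stronger regions, and 0 to 7 and 4 to 10 with 1 list left out. Where a list was left out, the lone list was assumed to vary like the others. With the replicate block, which rests on numbers that did not pair the lists, the counts were 73 and 1, 5 and 6, and 2 and 8. No median change turned its sign under any alternative tried. Peak lists hold no reads, so a site under the threshold of a list may still be acetylated, and precision is limited by 2 lists per group.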
